A study of Mus musculus with 33 samples.

Results

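The guides described here target the end of Lrrc2 that faces Tdgf1. They belong to a screen in which Cas9 mutated DNA around Tdgf1 in embryonic stem cells of the mouse, cultured cells that can form all tissues of the body, and are the guide RNAs whose deposited interval has its midpoint at chr9:110950500-110952499 (mm10). The rule used position only. It gave 198 of the 3908 guides with a position in the Tdgf1 library, which also holds 10 GFP-targeting guides, 3918 in all. The populations were GFP-negative cells, GFP-medium cells and unsorted bulk cells, with 3 replicates each. All came from a Tdgf1 reporter line with a GFP replacement at the TSS (transcription start site), carried a placeholder (dummy) guide RNA in ROSA26, and grew in serum medium with LIF, GSK-3 inhibitor XV and UO126. GFP-negative and GFP-medium cells were sorted after the guides had been introduced by electroporation. The sources used here do not say whether the line is 1 clone, and guide counts hold no marker of cell identity.

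Cas9 cuts the DNA that a guide matches, next to a short motif called the PAM, and repair leaves small insertions or deletions at the cut. In a reporter screen a guide becomes more frequent among cells with little GFP when the mutations it makes lower the reporter. Tdgf1 encodes Cripto, a protein on the cell surface that assists the receptors of the Nodal signal, and Lrrc2 encodes a leucine-rich repeat protein. A promoter is the DNA at the start of a gene where transcription is begun, and promoters of some genes are known to act on the expression of a neighbouring gene as well. The window asks whether mutations at the Lrrc2 promoter are over-represented among cells that lost Tdgf1 reporter signal.

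RefSeq (GRCm38.p6, the assembly behind mm10) places Tdgf1 on the minus strand with its 5′ end at 110946158 and Lrrc2 on the plus strand with its 5′ end at 110951545, so the genes run away from each other and their 5′ ends lie 5387 bp apart. The Lrrc2 end in the window is therefore its 5′ end. Of the 198 sites, 92 are centred upstream of it and 106 inside Lrrc2. Sites lay a median of 4 bp from the next, and 175 share at least 1 base with the next site, so neighbouring guides are not independent targets. The 250 bases before the Lrrc2 5′ end, chr9:110951295-110951544 on the plus strand, are shown because 44 of the sites lie fully in the stretch from their first base to 50 bp inside the gene.
Lrrc2 upstream: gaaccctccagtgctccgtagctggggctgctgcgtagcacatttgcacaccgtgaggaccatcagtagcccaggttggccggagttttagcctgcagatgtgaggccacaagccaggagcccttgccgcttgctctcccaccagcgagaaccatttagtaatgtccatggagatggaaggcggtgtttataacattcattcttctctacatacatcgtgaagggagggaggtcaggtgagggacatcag

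This sequence has 54.8% G and C bases and 8 CG pairs, where the median of all RefSeq promoters at the same length is 52.4% and 6. Searched on both strands, it holds 1 match to the letters TATAAA, on the strand opposite to Lrrc2. The base of this match farthest from the Lrrc2 5′ end lies at −64 bp. Of the 32851 promoters, 12.4% hold the letters TATAAA in the same 250 bases. The CCAAT box, spelled CCAAT and held by 33.8% of promoters, had no match in these letters. Neither had the GC box, spelled GGGCGG (32.7% of promoters). The E-box CACGTG, found in 6.02% of promoters, and the octamer, whose letters ATGCAAAT are in 1.60% of them, were not matched either.

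Read 1 base higher than deposited at both ends, all 44 sites in this stretch ended in GG or began with CC, as a PAM on the plus or minus strand requires. Read as deposited, only 11 did. Sites are therefore given 1 base above the deposited interval and counted from 1. The guide lies on the plus strand at 24 of the 44 sites, on the minus strand at 18 and is not settled at 2, which carry a PAM on both. The target sites below, 5′ to 3′ on the guide's own strand with the PAM in capitals, are those the results turn on near the 5′ end: guides with high counts in 1 sorted library, their closest neighbours, and guides that were lost.
chr9:110951453-110951475 (plus strand): gtaatgtccatggagatggaAGG
chr9:110951500-110951522 (plus strand): tctacatacatcgtgaagggAGG
chr9:110951501-110951523 (plus strand): ctacatacatcgtgaagggaGGG
chr9:110951515-110951537 (plus strand): aagggagggaggtcaggtgaGGG
chr9:110951523-110951545 (plus strand): gaggtcaggtgagggacatcAGG
chr9:110951525-110951546 (plus strand): ggtcaggtgagggacatcaGGG
chr9:110951535-110951556 (plus strand): gggacatcagggattttccTGG
chr9:110951550-110951572 (plus strand): ttcctggaagaaagctttgcTGG

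Library totals were 608532 to 719247 counts in GFP-negative, 379072 to 461825 in GFP-medium and 107960 to 123840 in bulk libraries. Values for single guides are counts per 1000000 guide counts of the library (CPM). One count was worth 1.39 to 1.64 CPM in GFP-negative cells, 2.17 to 2.64 in GFP-medium and 8.07 to 9.26 in bulk libraries. A guide without counts can still have been present at up to 3 counts per library, which is 4.17 to 4.93 CPM in GFP-negative libraries and 6.50 to 7.91 CPM in GFP-medium libraries. The GFP-targeting guides, which cut the reporter itself, took 4.53% to 8.41% of GFP-negative counts, 0.0378% to 0.408% of GFP-medium counts and 0.186% to 0.242% of bulk counts. Separate cultures for the replicates are not mentioned in the labels. A p-value here therefore reflects the spread among the libraries alone, and that spread may be technical. Intervals and limits from counts cover counting error only, since PCR reads without molecular identifiers are not independent molecules.

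No guide at the Lrrc2 end was called enriched in cells that had lost reporter signal. Of the 198, 173 passed the filter on low counts, and the other 25 were not tested. In edgeR's quasi-likelihood test with Benjamini-Hochberg adjustment over all 3172 tested guides, 0 of the 173 were higher in GFP-negative than in bulk cells, where 0.00% of all tested guides were, and 0 were higher in GFP-medium than in bulk cells, again against 0.00%. At an unadjusted p under 0.05 the number was 0 in both comparisons, against 0.158% of all tested guides in GFP-negative cells and 0.221% in GFP-medium cells, and DESeq2 also called 0 in both, against 0.189% and 0.567% of all tested guides. A count of 0 by edgeR does not set these guides apart, since the test called no guide of the library higher. It called 0 of the 10 GFP-targeting guides higher in GFP-negative cells, although 9 of them were above all bulk libraries in all 3 GFP-negative libraries. The test therefore missed guides that cut the reporter itself.

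Read without a model, no guide in the window was above all 3 bulk libraries in every library of a sorted population. This reading does not pair libraries by replicate number. All 3 GFP-negative libraries lay above all 3 bulk libraries for 0 of the 198 guides, against 1.51% of all 3918 library guides. For GFP-medium cells the number was also 0, against 0.740%. Of the 198, 63 (31.8%) were above all bulk libraries in 1 GFP-negative library, against 22.7% of all library guides, 8 (4.04%) in 2, against 5.90%, and 127 in none. In GFP-medium cells 43 (21.7%) were above in 1 library, against 14.0%, 6 (3.03%) in 2, against 3.39%, and 149 in none. Whether the window differs from the library in these shares was not tested. Within 2 kb of the Tdgf1 5′ end, by comparison, 41 of 456 guides (8.99%) were above bulk in all 3 GFP-negative libraries and 26 (5.70%) in all 3 GFP-medium libraries. Among the 250 intergenic guides between these stretches the numbers were 4 (1.60%) and 3 (1.20%), and among the 1251 guides farther inside Lrrc2 they were 1 (0.0799%) and 0. These differences between regions were not tested.

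The highest counts at the Lrrc2 end were each found in 1 library of a population. Above 2000 CPM, a limit chosen after the values were seen and higher than the 1588 CPM that any of these guides reached in bulk, there were 11, 2 and 7 guides in GFP-negative replicates 1, 2 and 3 and 4, 1 and 3 in the GFP-medium replicates. These were 20 different guides in GFP-negative cells and 8 in GFP-medium cells, and 0 of them passed the limit in a second library of the same population. At the Tdgf1 5′ end, 27 of the 120 guides above the limit in GFP-negative cells passed it in 2 or 3 libraries, and 51 of 154 did in GFP-medium cells. Among GFP-targeting guides 7 of 8 did in GFP-negative cells. Among the intergenic guides next to the window 5 of 25 did in GFP-negative cells and 2 of 22 in GFP-medium cells. Among guides farther inside Lrrc2, nearer to the pattern of the window, the numbers were 3 of 50 and 0 of 35. These differences between regions were not tested.

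The guide with the highest mean count in both sorted populations was chr9:110950607-110950629, at −927 bp from the Lrrc2 5′ end and intergenic. It had 8327, 734 and 37.8 CPM in GFP-negative cells, 1711, 121 and 14015 CPM in GFP-medium and 760, 953 and 611 CPM in bulk replicates 1, 2 and 3. Replicate 1 of the GFP-negative cells and replicates 1 and 3 of the GFP-medium cells were above all of bulk, and the remaining sorted libraries were within or below it. The log2 change was 2.09 in GFP-negative (adjusted p = 0.761) and 2.57 in GFP-medium cells (adjusted p = 0.416).

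At the core promoter, chr9:110951500-110951522, centred at −34 bp from the Lrrc2 5′ end, had 5744, 91.8 and 130 CPM in GFP-negative cells, 1039, 9750 and 0 CPM in GFP-medium and 618, 266 and 167 CPM in bulk replicates 1, 2 and 3. Replicate 1 of the GFP-negative cells and replicates 1 and 2 of the GFP-medium cells were above all of bulk, and the remaining sorted libraries were below it. The log2 change was 2.65 in GFP-negative (adjusted p = 0.739) and 3.51 in GFP-medium cells (adjusted p = 0.359). Its neighbour 1 bp on, chr9:110951501-110951523, named after its values were seen, matches a target shifted by that 1 base. It had 0, 83.4 and 940 CPM in GFP-negative cells, 0, 736 and 109 CPM in GFP-medium and 159, 258 and 630 CPM in bulk cells. The 2 guides were thus high in different GFP-negative replicates. In GFP-medium cells both were highest in replicate 2, at 9750 and 736 CPM, and each was above all of its bulk libraries there.

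The 3 guides nearest to the 5′ end on the upstream side did not share a pattern. The site at chr9:110951523-110951545, whose PAM ends on the first base of Lrrc2, had 3981, 0 and 0 CPM in GFP-negative cells, 511, 0 and 0 CPM in GFP-medium and 326, 129 and 46.3 CPM in bulk replicates (log2 change 3.14 in GFP-negative, adjusted p = 0.793). All of its sorted counts were thus in replicate 1. The site that starts 2 bp on, chr9:110951525-110951546, had 11.4, 0 and 0 CPM in GFP-negative cells, 19.5, 0 and 0 CPM in GFP-medium and 100.3, 258 and 9.26 CPM in bulk cells and did not pass the filter. The site that starts 8 bp before, chr9:110951515-110951537, had no count in any sorted library, against 91.9, 24.2 and 74.1 CPM in bulk, and was at least 13.6-fold lower in GFP-negative (adjusted p = 0.00506, with the replicate block 0.113) and at least 9.02-fold lower in GFP-medium cells (adjusted p = 0.00655, with the replicate block 0.0653).

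On the inner side, chr9:110951535-110951556, which spans the first base of Lrrc2, had 0, 0 and 11.5 CPM in GFP-negative, no count in GFP-medium and 117, 178 and 64.8 CPM in bulk replicates. Its counts were below bulk in every sorted library, and it passed the test in GFP-medium (at least 17.1-fold lower, adjusted p = 0.0179) but not in GFP-negative cells (log2 change −4.67, adjusted p = 0.0860). The site 16 bp inside, chr9:110951550-110951572, had 14.7, 677 and 0 CPM in GFP-negative cells, 0, 277 and 0 CPM in GFP-medium and 251, 250.3 and 324 CPM in bulk cells. Its sorted counts lay almost all in replicate 2 (adjusted p = 1.00 in GFP-negative cells and 0.754 in GFP-medium cells). The site 1 bp farther in, chr9:110951551-110951573, had 0, 0 and 200.5 CPM in GFP-negative, no count in GFP-medium and 8.36, 186 and 370.5 CPM in bulk cells (adjusted p = 0.907 and 0.0536).

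Other guides with high means were spread over the window and also overlapped bulk. The site chr9:110952118-110952140, 584 bp inside Lrrc2, had 414, 101.5 and 5584 CPM in GFP-negative cells and 460, 509 and 509 CPM in bulk cells (log2 change 2.22, adjusted p = 0.719), and 52.0, 18.5 and 102 CPM in GFP-medium cells. The site chr9:110952345-110952367, 811 bp inside, had 4302, 495 and 0 CPM in GFP-negative against 928, 419.9 and 667 CPM in bulk cells (log2 change 1.38, adjusted p = 0.911). Upstream, chr9:110950955-110950977 had 127, 93.2 and 4506 CPM in GFP-negative against 418, 694 and 408 CPM in bulk cells (log2 change 1.82, adjusted p = 0.846). All 3 thus overlapped bulk, with 1 replicate above it and at least 1 below it.

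In GFP-medium cells, chr9:110952301-110952323 had 899, 361 and 13592 CPM against 735, 743 and 797 CPM in bulk (log2 change 2.47, adjusted p = 0.502), with replicates 1 and 3 above all of bulk, and the 4331 CPM it reached in GFP-negative cells were in replicate 2. The site chr9:110951299-110951321, at −235 bp with a PAM on both strands, had 5506, 2.64 and 82.3 CPM in GFP-medium against 267, 226 and 64.8 CPM in bulk cells (log2 change 3.74, adjusted p = 0.383). The site chr9:110951922-110951944, 388 bp inside Lrrc2, had 1464, 166 and 3355 CPM in GFP-medium against 535, 80.8 and 611 CPM in bulk cells (log2 change 1.97, adjusted p = 0.510). It was above the bulk library of its own replicate number in all 3 replicates, but its replicate 2 was below bulk replicates 1 and 3. In GFP-negative cells it had 582, 279.5 and 697 CPM. These too were above the bulk library of the same number in each replicate, but replicates 1 and 2 were not above all of bulk.

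Overlapping guides were set beside each other, since guides 1 or a few bp apart cut nearly the same DNA. For each of the 20 guides above 2000 CPM in a GFP-negative library, the site with the nearest start in the window, at most 12 bp away, was read in the same library. None of these neighbours passed 2000 CPM, 12 had no count there, and the highest had 1365 CPM. For the 8 guides above 2000 CPM in GFP-medium libraries, 0 neighbours passed, 7 had no count and the remaining one had 736 CPM. Of all 198 guides in the window, 82, 127 and 64 had counts in GFP-negative replicates 1, 2 and 3. In the GFP-medium replicates 62, 88 and 40 did. Only 11, 2 and 7 guides passed 2000 CPM in the GFP-negative replicates and 4, 1 and 3 in the GFP-medium replicates. Whether the neighbours differed from other guides of the window was not tested. Only the site with the nearest start was read. The overlapping sites chr9:110951069-110951091 and chr9:110951082-110951104, named after their values were seen, both passed 2000 CPM in GFP-negative replicate 3. The first had 0, 393 and 2291 CPM and the second 68.4, 1114 and 2261 CPM in GFP-negative cells. Bulk cells had 100, 72.7 and 204 CPM for the first and 192, 444 and 380 CPM for the second. Each was above all of its bulk libraries in GFP-negative replicates 2 and 3. The sites chr9:110951662-110951684 and chr9:110951663-110951685, 1 bp apart and named after their values were seen, were both above 2000 CPM in GFP-negative cells but in different libraries. The first had 4296, 425 and 0 CPM and the second 165, 2993 and 0 CPM in GFP-negative cells, against 844, 1034 and 463 CPM and 836, 864 and 574 CPM in bulk cells.

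Of the 23 guides above 2000 CPM in any sorted library, 20 had counts in both sorted populations. For 13 of these 20 the highest GFP-negative and the highest GFP-medium value were in the same replicate number, which is a description without a test. Over all 3172 tested guides, deviations from the population mean correlated at 0.369 to 0.463 between GFP-negative and GFP-medium libraries of one number, and at −0.269 to −0.140 between those of different numbers. Deviations from a mean cancel within each guide, so positive values for one number bring negative ones for different numbers. The negative values are therefore not separate evidence of pairing. The labels assign libraries of one number to the same numbered replicate of the line.

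Losses were common at the Lrrc2 end, as they were over the library, and the difference in the shares called was not tested. In edgeR's test 23 of 173 guides (13.3%) were lower in GFP-negative than in bulk cells, where 22.2% of all tested guides were. In GFP-medium cells 42 of 173 (24.3%) were lower than in bulk, against 40.3%. Among the intergenic guides next to the window the shares called lower were 14.2% in GFP-negative cells and 27.5% in GFP-medium cells. At an unadjusted p under 0.05, 31 (17.9%) were lower in GFP-negative cells, against 27.9% of all tested guides, and 59 (34.1%) in GFP-medium cells, against 49.7%. DESeq2 called 34 and 64 of the 173 lower, against 31.9% and 51.9% of all tested guides. The median log2 change of the 173 guides was −0.96 in GFP-negative cells and −2.35 in GFP-medium cells, beside −1.67 and −6.44 over all tested guides, or −3.96 for the last with guides lacking any sorted count set to their bound. Both comparisons share the bulk libraries, and 22 guides were called in both. The matching number over the library is not given here. The numbers rested on the libraries used. With the replicate number as a block they were 0 in GFP-negative (0.00% of all tested guides) and 41 in GFP-medium cells (39.5%). The number in GFP-negative cells was 46 without GFP-negative replicate 2 (39.3% of all tested guides), 15 without bulk replicate 2 (14.6%) and 14 without bulk replicate 3 (16.5%). The number in GFP-medium cells was 0 without any one of the 3 GFP-medium replicates (0.00% of all tested guides each time), 66 without GFP-negative replicate 3 (51.1%) and 26 without bulk replicate 3 (22.4%). In each of these cases the share over all tested guides moved with that of the window. Not every other case did so. Without GFP-negative replicate 3, 31 of 184 window guides (16.8%) were called lower in GFP-negative cells, a rise from 13.3%. The share over all tested guides was then 21.8%, a fall from 22.2%.

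Most calls were of guides without any sorted count. No count in any GFP-negative library was found for 41 of the 198 guides (34.0% of all library guides lacked one), including 20 of the 23 called lower. In GFP-medium cells 72 had none (55.2% of all library guides), including 37 of the 42 called. Over the library, 639 of the 705 guides called lower in GFP-negative cells had no count there. In GFP-medium cells 1222 of the 1278 called had none. Counts in all 3 libraries were found for 26 guides in GFP-negative cells and 13 in GFP-medium cells, and 8 guides had counts in all 9 libraries. A bulk library held counts for 187 to 193 of the 198. All GFP-negative libraries were below all bulk libraries for 74 guides, against 42.0% of all library guides, and all GFP-medium libraries for 96, against 58.3%.

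The called guides with the lowest ratios to bulk lay on both sides of the 5′ end. The site chr9:110950887-110950909, at −647 bp, had no count in either sorted population against 251, 969 and 333.5 CPM in bulk, and was at least 111-fold lower in GFP-negative (adjusted p = 0.0405, with the replicate block 0.0936) and at least 73.7-fold lower in GFP-medium cells (adjusted p = 0.0340). The site chr9:110950635-110950657 had 3 counts over the GFP-negative libraries against 76 in bulk, a depth-scaled ratio of 140 with a 95% counting interval of 46.1 to 694 (adjusted p = 0.0449, with the replicate block 0.141). In GFP-medium cells it had no count and was at least 30.5-fold lower (adjusted p = 0.0198). The site chr9:110952447-110952469, 913 bp inside Lrrc2, had 3 counts in GFP-negative, 1 in GFP-medium and 70 in bulk libraries. Its ratio was 129 (42.3 to 640) in GFP-negative (adjusted p = 0.0374, with the replicate block 0.118) and 257 (44.6 to 10300) in GFP-medium cells (adjusted p = 0.0271, with the replicate block 0.0554).

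The other GFP-medium guides with the lowest ratios were chr9:110951010-110951032 and chr9:110951453-110951475. The first had 2 GFP-medium counts against 120 in bulk, a ratio of 220 with an interval of 59.7 to 1840 (adjusted p = 0.0487, with the replicate block 0.0733). The second lies at −81 bp from the Lrrc2 5′ end, had 1 count in GFP-medium cells against 27, 18 and 1 counts in bulk (ratio 169, interval 28.8 to 6810, adjusted p = 0.0490, with the replicate block 0.110), and in GFP-negative cells had 14.7, 171 and 0 CPM against 226, 145 and 9.26 CPM in bulk (adjusted p = 0.940).

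Summed over the window, the share of library counts was close to that of bulk in GFP-negative cells and lower in GFP-medium cells. The 198 guides took 7.02%, 4.42% and 4.33% of GFP-negative counts, 4.25%, 3.65% and 4.29% of GFP-medium counts and 5.60%, 5.44% and 5.38% of bulk counts. The means were 5.26% ± 1.53, 4.06% ± 0.360 and 5.47% ± 0.114 (SD, n = 3 each), and exact 95% intervals of a single library reached at most 0.0640 percentage points to either side in GFP-negative and 0.135 in bulk cells. The GFP-negative range lay on both sides of bulk, with replicate 1 above it, while all 3 GFP-medium libraries were below all 3 bulk libraries. Because the sum was described and not tested, it carries no p-value.

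A share depends on what else fills the library, and guides at the Tdgf1 5′ end took 31.9% to 42.2% of GFP-negative, 52.5% to 66.5% of GFP-medium and 12.7% to 13.3% of bulk counts. Among counts without those guides and without GFP-targeting guides, the Lrrc2-end guides took 11.1%, 7.64% and 8.45% in GFP-negative, 8.98%, 10.1% and 12.8% in GFP-medium and 6.47%, 6.27% and 6.17% in bulk libraries. On this scale every sorted library was above every bulk library, and the direction in GFP-medium cells was the opposite of that for all counts. The intergenic guides next to the window took 9.91%, 14.9% and 17.2% in GFP-negative, 9.21%, 26.3% and 13.1% in GFP-medium and 7.83%, 7.54% and 7.83% in bulk libraries, and were likewise above bulk in each. Guides farther inside Lrrc2 took 34.4% to 37.5% in GFP-negative, 24.0% to 36.2% in GFP-medium and 39.0% to 39.1% in bulk libraries, below bulk in each. The differences between these stretches were not tested.

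A few guides made up much of the sorted sums. The 5 most counted guides of the window held 38.0%, 29.0% and 48.1% of its GFP-negative counts, 37.8%, 41.7% and 78.3% of its GFP-medium counts and 10.7%, 8.74% and 8.20% of its bulk counts. Without the most counted guide of each library, the window's share of all counts was 4.68% ± 1.36 in GFP-negative, 3.12% ± 0.539 in GFP-medium and 5.34% ± 0.101 in bulk cells.

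Cut into 9 steps of 250 bp and read as shares of all counts, 0 steps stood above bulk in every library of a sorted population. All 3 libraries were below all 3 bulk libraries in 2 steps in GFP-negative cells and in 3 steps in GFP-medium cells. In the 250 bp just upstream of the Lrrc2 5′ end, 40 guides took 1.95%, 0.745% and 0.765% of GFP-negative, 1.11%, 1.53% and 0.268% of GFP-medium and 1.21%, 1.17% and 1.16% of bulk counts. The sorted values lay on both sides of bulk. In the first 250 bp of Lrrc2, 31 guides took 1.03%, 0.971% and 0.516% of GFP-negative, 0.317%, 0.397% and 0.0438% of GFP-medium and 1.06%, 0.954% and 0.799% of bulk counts, and the GFP-medium libraries were below bulk on this scale. From 500 to 251 bp upstream, 31 guides took 0.997%, 0.885% and 0.848% of GFP-negative counts and 0.919%, 0.858% and 0.929% of bulk counts. This reading depends on the total. Among counts without Tdgf1 5′ and GFP-targeting guides, a total applied to the steps after the data were seen, 2 of the 9 steps were above bulk in every GFP-negative library and 0 in every GFP-medium library. On this total 1 step was below bulk in every GFP-negative library and 0 in every GFP-medium library. From 500 to 251 bp upstream the guides then took 1.57%, 1.53% and 1.66% in GFP-negative against 1.06%, 0.987% and 1.07% in bulk libraries. From 750 to 999 bp inside Lrrc2 they took 1.70%, 1.25% and 0.929% in GFP-negative against 0.922%, 0.687% and 0.809% in bulk libraries. In the first 250 bp of Lrrc2 they took 0.668%, 1.10% and 0.131% in GFP-medium against 1.22%, 1.10% and 0.918% in bulk libraries, so that GFP-medium replicate 2 was within the bulk range. In the 250 bp just upstream they took 3.07%, 1.29% and 1.49% in GFP-negative and 2.34%, 4.23% and 0.800% in GFP-medium against 1.40%, 1.35% and 1.33% in bulk libraries, still on both sides of bulk.

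On the 2 sides of the 5′ end, whose difference was not tested, guides upstream took 2.66% ± 1.09 of all GFP-negative counts against 2.72% ± 0.0825 in bulk and guides inside Lrrc2 took 2.60% ± 0.448 against 2.75% ± 0.164 in bulk. In GFP-medium cells they took 2.23% ± 0.347 upstream and 1.83% ± 0.707 inside. Without Tdgf1 5′ and GFP-targeting guides in the total, the upstream guides took 4.55% ± 1.44 in GFP-negative and 5.88% ± 1.48 in GFP-medium against 3.13% ± 0.0934 in bulk cells (SD, n = 3 each). The guides inside Lrrc2 took 4.50% ± 0.346 in GFP-negative and 4.75% ± 2.00 in GFP-medium against 3.17% ± 0.197 in bulk cells. Upstream, 11 of 82 tested guides were called lower in GFP-negative cells and 18 in GFP-medium cells, and inside, 12 and 24 of 91 were. Over all tested guides the shares called lower were 22.2% in GFP-negative cells and 40.3% in GFP-medium cells.

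Between the sorted populations, with GFP-negative over GFP-medium cells, edgeR called 0 of 173 higher and 0 lower, against 0.00% of all tested guides in each direction. At an unadjusted p under 0.05, 30 (17.3%) were higher and 2 (1.16%) lower, against 22.5% and 1.99% of all tested guides. DESeq2 called 17 higher and 1 lower, against 14.2% and 1.64% of all tested guides. The median log2 change was 0.56, beside 1.04 over all tested guides.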

How the data were processed

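The authors deposited whole-number counts of guides per library, which were taken as raw counts without normalization. Per the labels, libraries were made by PCR from genomic DNA. Positions are in mm10, per the submitters' processing notes. The sources used here do not give the counting program. The placeholder guide was left out of totals and tests. Groups and replicate numbers came from sample titles.

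The whole table was fitted with edgeR 4.0.16 in R 4.3.3 (filterByExpr with its minimum count of 10, TMM, robust quasi-likelihood F test on 9 libraries, 2-sided, Benjamini-Hochberg at 0.05). The filter kept 3172 guides. DESeq2 1.42.0 used the same guides. The script was tested on data simulated at a set spread around the bulk means. That does not give the power of the test on these libraries. A bound for a guide without counts uses 3 counts per library. Same-numbered libraries correlated in their deviations in every pair (0.143 to 0.463), and their descriptions name the same replicate of the line. The main fit used population only, so its p-values and call counts ignore this pairing. Only the replicate block took it into account. Gene ends and promoter sequences are RefSeq's (GRCm38.p6). The window, comparisons and rules were chosen with earlier results of these data known. Named guides are those above all 3 bulk libraries in every library of a sorted population, and the 5 highest means in each. Also named are the 3 lowest called ratios in each, and the 3 nearest sites on each side of the Lrrc2 5′ end. Others are marked in the text. The alternatives tried were other scalings, no filter, DESeq2, 2 populations per fit, the replicate block, leaving out each replicate, and other totals and windows for the summed share.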

Additional observations from a re-analysis of the deposited data

How the results depend on the processing

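The count of guides called higher than bulk was 0 in both sorted populations under every alternative run. Over all tested guides the share called higher was at most 0.291% in GFP-negative cells and 0.567% in GFP-medium cells. With the replicate block, 0 were called lower in GFP-negative cells (0.00% of all tested guides), and the block changed no other count by over 1.5 times. DESeq2 gave 64 lower in GFP-medium cells, and 17 higher and 1 lower in GFP-negative against GFP-medium cells. Its shares over all tested guides were 51.9%, 14.2% and 1.64%. Leaving out 1 replicate gave 14 to 46 lower in GFP-negative and 0 to 66 in GFP-medium cells. Over all tested guides the shares were then 14.3% to 39.3% and 0.00% to 51.6%. Other scalings of the fit moved the median log2 change of all tested guides in GFP-negative cells from −1.67 to between −2.74 and −1.29, and that of the window to between −2.07 and −0.45, with no change of sign. The replicate block gave the window medians of −5.14 in GFP-negative cells and −6.98 in GFP-medium cells, and TMMwsp scaling ended the GFP-medium calls of chr9:110951010-110951032 and chr9:110951453-110951475. The causes of these shifts were not tested.

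The summed share had a log2 ratio of −0.06 in GFP-negative against bulk cells, 0.0532 with the placeholder in the total, 0.52 without Tdgf1 5′ and GFP-targeting guides in the total, and −0.323 to 0.0647 with 1 replicate left out. In GFP-medium against bulk cells it was −0.43, and 0.75 without those guides in the total, −0.78 without the most counted guide and −0.765 within 500 bp of the 5′ end. GFP-negative against GFP-medium cells gave 0.37, and −0.23 without those guides. On that total, chosen for the steps after seeing the data, 2 of 9 distance steps were above bulk in every GFP-negative library, and 0 were as shares of all counts. Below bulk in every GFP-negative library were 1 step on that total and 2 as shares of all counts.

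Leaving out 1 replicate turned the log2 change of single guides. In GFP-negative against bulk cells the range was −0.59 to 2.81 for chr9:110950607-110950629, −0.655 to 2.95 for chr9:110952118-110952140, −1.26 to 3.29 for chr9:110951500-110951522, −1.04 to 2.09 for chr9:110952345-110952367, −1.87 to 2.61 for chr9:110950955-110950977 and −8.66 to 4.00 for chr9:110951523-110951545. In GFP-medium cells it was −1.95 to 4.13 for chr9:110951299-110951321. With the replicate block it was −0.766 for chr9:110952345-110952367 and −5.52 for chr9:110951523-110951545. For chr9:110951550-110951572 it was −0.00 as reported, 0.185 with TMMwsp, 0.155 without a filter, 0.125 with 2 populations, and −5.06 to 0.73 with a replicate left out.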
